A study of Rattus norvegicus with 7 samples.

Results

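The 10 genes described here are those by which mesenchymal stem cells (MSCs) are usually identified. Among them, 7 mark the cells themselves (Thy1, Nt5e, Eng, Cd44, Vcam1, Pdgfra and Pdgfrb), and 3 mark blood or endothelial cells and should be absent (Ptprc, Cd34 and Pecam1). They were listed by name, by a rule that uses no measured level, although earlier results of these data were known. All 10 are among the 17147 gene symbols of the expression tables. The data are RNA-seq of primary rat bone marrow MSCs (rMSCs) at 4 h after seeding of 20000 cells. There were 3 libraries on films of ISB-P, a polycaprolactone-based polyurethane built with propoxylated isosorbide, 3 on films of PCL (polycaprolactone), and 1 on TCP, a tissue culture plate. Both films were 16 mm wide and sterilized with ethylene oxide gas. All groups received unmodified cells. The methods give a growth medium with serum for the culture of rMSCs, and do not name the medium used for RNA-seq. The study used RNA-seq to ask how cells that attach to ISB-P differ from those on PCL.

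The methods describe rMSCs from the hind limb marrow of 1 male Sprague-Dawley rat aged 6 weeks, passed through a strainer and grown on plastic, with no sorting by surface marker. A marrow culture of this kind can still hold blood cells that attach to plastic. Nothing in the labels says whether the 3 libraries of a film came from separate cultures, so p-values measure only the spread between these libraries, which may be technical. TCP had 1 library and therefore no replicate check.

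Thy1, Nt5e and Eng encode CD90, CD73 and CD105, the surface proteins that define cultured MSCs together with the absence of CD45 (Ptprc) and CD34. Thy1 is a small protein held in the membrane by a lipid anchor, Nt5e an ectoenzyme that makes adenosine from AMP, and Eng a co-receptor for ligands of the TGF-beta family. Cd44 binds hyaluronan and Vcam1 binds integrin alpha-4 on leucocytes. Pdgfra and Pdgfrb are the receptor tyrosine kinases for platelet-derived growth factors (PDGF), which drive division and migration of stromal cells. Pecam1 encodes CD31 of endothelial cells.

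RefSeq promoter windows were matched by symbol for 7 of the 10 genes (Nt5e, Eng, Cd44, Vcam1, Pdgfra, Ptprc and Cd34). Those of Vcam1 and Pdgfra are shown because these genes gave the largest ratios between TCP and the films among the 7 MSC markers. Each holds the 250 bases before the gene's start, 5′ to 3′ on the gene's strand, in the GRCr8 build, which is not the build of the expression tables (rn5). Capitals mark matches on either strand to an NF-kappaB-like motif or TATAAA in Vcam1, and to CCAAT in Pdgfra.
Vcam1, chr2:206742784-206743033, minus strand: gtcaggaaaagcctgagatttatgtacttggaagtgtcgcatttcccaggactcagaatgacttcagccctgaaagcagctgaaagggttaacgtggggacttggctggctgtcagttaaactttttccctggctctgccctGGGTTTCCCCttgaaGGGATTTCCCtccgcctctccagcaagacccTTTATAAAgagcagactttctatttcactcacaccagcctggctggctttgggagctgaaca
Pdgfra, chr14:33408517-33408766, minus strand: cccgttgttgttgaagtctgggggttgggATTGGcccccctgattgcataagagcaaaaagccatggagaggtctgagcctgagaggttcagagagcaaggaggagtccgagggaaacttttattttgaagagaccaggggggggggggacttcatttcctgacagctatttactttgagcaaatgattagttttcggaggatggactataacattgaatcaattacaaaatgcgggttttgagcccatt
The NF-kappaB-like motif was searched as GGG and CCC with 4 bases between them, the third of which is T. The Vcam1 window held 2 matches to it, at 108 to 99 and 93 to 84 bases before the start and 5 bases apart. Of 33469 RefSeq rat windows of this length, 4.42% held at least 1 such match and 0.55% at least 2. Vcam1 also held 2 overlapping matches to TATAAA, which is found in 12.9% of windows. Pdgfra held neither motif. It had 1 match to CCAAT, on the opposite strand and 221 bases before the start, a motif found in 34.0% of windows. The Nt5e window held 3 matches to the GC box GGGCGG, found in 30.5% of windows, and 20 CpG dinucleotides against a median of 5. The Vcam1 window held 3 CpG, and Pdgfra held 4. GAANNTTC, a unit of the heat shock element found in 7.23% of windows, had no match in any of the 7 windows. A match is a run of letters, and binding was not measured here.

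Levels are given as FPKM (fragments per kilobase of transcript per unit of sequenced fragments), which are per length and can be set side by side between genes. In all 7 libraries Thy1 was the highest of the 10 genes, followed by Cd44, Pdgfrb and Pdgfra in that order. Averaged over the 7 libraries, Thy1 ranked 93 among all genes, Cd44 263, Pdgfrb 663 and Pdgfra 2204. Vcam1, Eng and Nt5e came next at ranks 4488, 4972 and 6005 and changed places between libraries, since their levels overlapped. The lowest of the 7 MSC markers was at least 6.47-fold above Ptprc in every library, the smallest ratio being that of TCP and the largest 26.2 (PCL replicate 2). This gap does not hold for all blood markers. Over the films Nt5e lay at 8.13 to 12.9 FPKM, Cd14 at 10.9 to 16.6, Lyz2 at 16.6 to 27.2 and Cd48 at 46.7 to 104.7. Of 26 leucocyte and macrophage markers, 7 stayed under 1 FPKM in all libraries.

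**Figure D1:**
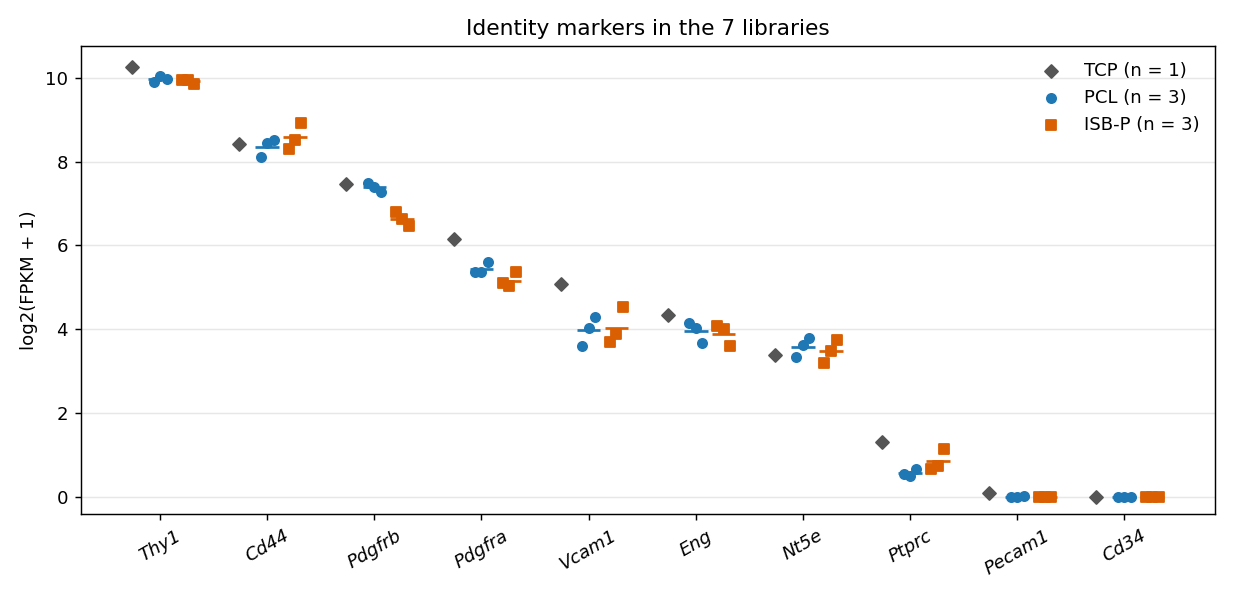
Level of each of the 10 identity markers in the 7 libraries, as log2(FPKM + 1) on the vertical axis, with genes along the horizontal axis, 1 point per library and a bar at the mean of the 3 libraries of each film. Thy1, Cd44, Pdgfrb and Pdgfra kept their order in every library, the ISB-P points of Pdgfrb and Pdgfra lie below all PCL points, and Pecam1 and Cd34 lie at or near 0.

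Comparison of the films used limma on log2(FPKM + 1) over the 9467 genes that reached 1 FPKM in 3 or more film libraries, with Benjamini-Hochberg adjustment over all of them. All 7 MSC markers and none of the 3 absent markers passed this filter. At an adjusted p under 0.05, 0 of the 7 were called, against a background of 1.72% of all genes tested (limma), 0.623% being called lower on ISB-P. At an unadjusted p under 0.05, 1 of the 7 (Pdgfrb) passed, against 12.1%. Same-numbered PCL and ISB-P libraries deviated together, and a fit with the replicate number as a block called 2 of the 7, Pdgfra and Pdgfrb, both lower on ISB-P (limma). That fit called 24.4% of all genes tested in either direction and 11.4% as lower on ISB-P. The log2 fold change of ISB-P against PCL was below 0 for 5 of the 7 and above 0 for Cd44 and Vcam1, although Vcam1 fell below 0 under scaling by upper quartile or to a common total. The median was -0.06 over the 7, beside 0.02 over all genes tested.

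The receptors of PDGF differed most between the films. Pdgfrb was measured at 177.5, 166.5 and 154.3 FPKM on PCL replicates 1, 2 and 3, at 109.6, 97.4 and 86.6 on ISB-P replicates 1, 2 and 3, and at 176.6 on TCP. All 3 ISB-P libraries lay below all 3 PCL libraries, and TCP lay inside the PCL range. The mean was 166.1 ± 11.6 (SD, n = 3) on PCL and 97.8 ± 11.5 (SD, n = 3) on ISB-P. On the log2(FPKM + 1) scale ISB-P was lower by 1.70-fold (log2 fold change -0.76, SE 0.14, 95% confidence interval -1.09 to -0.44). The adjusted p was 0.0510 (limma), just short of the threshold, and 0.000141 with the replicate block (limma). An exact two-sided permutation test over the 3 against 3 libraries gave 0.1, the smallest p that this design allows. Within numbers, the ISB-P value was 0.618, 0.585 and 0.561 of the PCL value. Without 1 library at a time the log2 fold change stayed between -0.85 and -0.68 with adjusted p from 0.0767 to 0.282 (limma).

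Pdgfra, the other PDGF receptor, showed a smaller difference on the same side. It was measured at 40.6, 40.4 and 47.5 FPKM on PCL, at 33.2, 31.6 and 40.2 on ISB-P, and at 70.1 on TCP. The ISB-P libraries again lay below all PCL libraries, by a narrow margin between 40.2 and 40.4, and TCP lay above all 6. The means were 42.9 ± 4.06 (SD, n = 3) on PCL and 35.0 ± 4.56 (SD, n = 3) on ISB-P, a log2 fold change of -0.29 (SE 0.15, 95% confidence interval -0.64 to 0.06). The adjusted p was 0.547 without the block and 0.0200 with it (limma). Libraries of the films did not overlap for these 2 of the 7 markers, against 17.7% of all genes tested in either direction and 9.54% in that direction. The ratio of Pdgfrb to Pdgfra was 2.52 on TCP, 4.37, 4.12 and 3.25 on PCL, and 3.30, 3.08 and 2.15 on ISB-P. The ranges overlapped, while within each numbered pair the ratio was lower on ISB-P, at 0.755, 0.748 and 0.664 of that on PCL.

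Among the 7 genes of PDGF ligands and receptors, 5 were tested. None was called, against 1.72% of all genes tested (limma, adjusted p under 0.05). At an unadjusted p under 0.05 there were 2, Pdgfrb and Pdgfa, against 12.1% of all genes tested. With the replicate block 3 were called, all lower on ISB-P, namely Pdgfrb, Pdgfra and Pdgfa, against 24.4% in either direction and 11.4% in that one (limma). Pdgfa encodes the ligand chain that binds Pdgfra. It was measured at 102.3, 64.5 and 65.2 FPKM on PCL, at 58.7, 40.3 and 32.9 on ISB-P, and at 99.3 on TCP. Every ISB-P value lay below every PCL value. The log2 fold change was -0.81 (SE 0.27) with an adjusted p of 0.265, and 0.000251 with the block (limma). Pdgfc, a ligand chain that is activated by cleavage, lay at 26.5 to 32.0 FPKM on PCL and 31.0 to 39.9 on ISB-P, with an adjusted p of 0.688 (limma). Pdgfrl, a receptor-like gene without a kinase, overlapped fully between the films, at 19.0 to 23.1 on PCL and 20.2 to 22.7 on ISB-P. Pdgfb and Pdgfd stayed under 0.6 FPKM on both films. TCP was above both film means for all 5 tested genes of the list, with a median ratio of 1.63 to the mean of the 6 films, beside 0.947 over all genes tested.

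**Figure D2:**
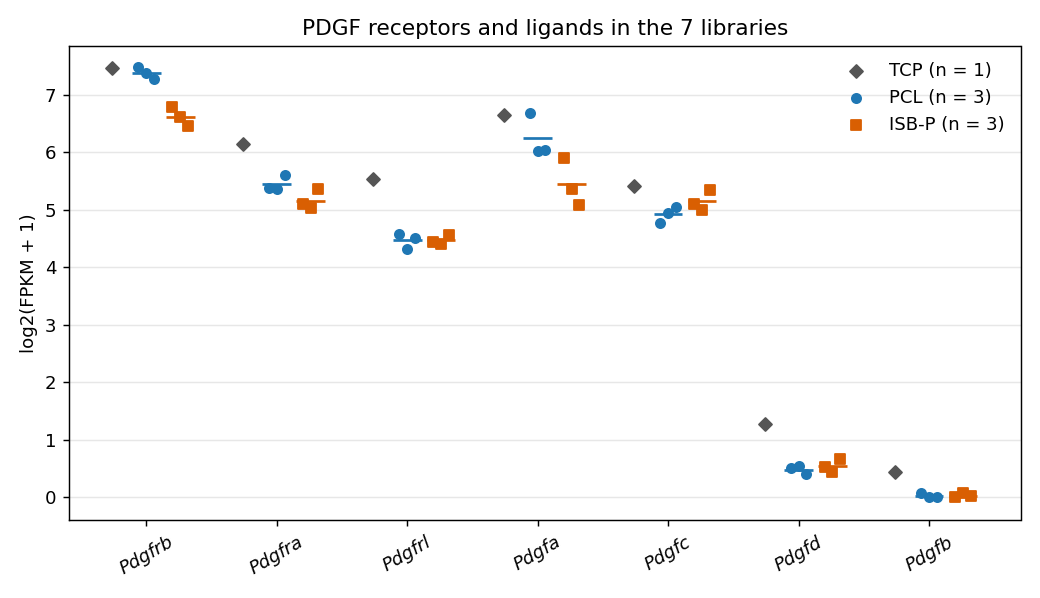
PDGF receptors and ligands in the 7 libraries, as log2(FPKM + 1) on the vertical axis, 1 point per library and a bar at the mean of 3 libraries. The ISB-P points of Pdgfrb, Pdgfra and Pdgfa lie below the PCL points, those of Pdgfc and Pdgfrl overlap with them, and Pdgfb and Pdgfd lie near 0 on the films.

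For the markers of the minimal MSC definition the estimated differences were smaller, although their intervals without the block included the estimate of Pdgfra. Thy1 was measured at 955.6, 1056.4 and 992.1 FPKM on PCL, at 976.9, 978.1 and 924.6 on ISB-P, and at 1209.8 on TCP. The films overlapped and TCP lay above all 6 film libraries. The means were 1001.4 ± 51.0 (SD, n = 3) on PCL and 959.9 ± 30.5 (SD, n = 3) on ISB-P, a log2 fold change of -0.06 with a 95% confidence interval of -0.30 to 0.17 (adjusted p 0.928, limma). Thy1 was the tightest of the 7 within films, and 96.1% of all genes tested had a larger within-film SD on the log2 scale.

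Nt5e, the least abundant of the 7, was measured at 9.14, 11.3 and 12.9 FPKM on PCL, at 8.13, 10.3 and 12.4 on ISB-P, and at 9.56 on TCP. The ranges overlapped almost fully and TCP lay inside them. In each numbered pair ISB-P was the lower, at 0.889, 0.905 and 0.957 of the PCL value. The log2 fold change was -0.11 with a 95% confidence interval of -0.57 to 0.34 (adjusted p 0.931, or 0.320 with the block, limma).

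Eng was measured at 16.9, 15.3 and 11.9 FPKM on PCL, at 16.0, 15.1 and 11.1 on ISB-P, and at 19.2 on TCP. The films overlapped and TCP was the highest library. ISB-P was again the lower of each numbered pair, at 0.946, 0.988 and 0.938 of PCL. The log2 fold change was -0.06 with a 95% confidence interval of -0.51 to 0.39 (adjusted p 0.960, or 0.603 with the block, limma). Counting Pdgfra and Pdgfrb, 4 of the 7 markers were lower on ISB-P in all 3 pairs, against 27.7% of all genes tested.

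Cd44 was the only one of the 7 that was higher on ISB-P in all 3 numbered pairs, by ratios of 1.14, 1.05 and 1.33, against 30.5% of all genes tested. It was measured at 274.9, 346.1 and 363.2 FPKM on PCL, at 314.5, 365.0 and 481.8 on ISB-P, and at 343.4 on TCP. The films overlapped, and TCP lay inside their range. The log2 fold change was 0.23 with a 95% confidence interval of -0.24 to 0.69 (adjusted p 0.829, limma). With the block the interval was 0.05 to 0.40 and the adjusted p 0.0617 (limma), which missed the threshold.

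Vcam1 varied most within films, since only 16.3% of all genes tested had a larger within-film SD. It was measured at 11.2, 15.5 and 18.6 FPKM on PCL, at 11.9, 13.9 and 22.2 on ISB-P, and at 32.8 on TCP. The ranges of the films overlapped, and TCP lay above all 6. The log2 fold change between the films was 0.06 with a 95% confidence interval of -0.58 to 0.70 (adjusted p 0.968, limma), with a sign that turned under 2 scalings. Without the block, the intervals of Thy1, Nt5e, Eng, Cd44 and Vcam1 leave room for film differences of the size seen for Pdgfra. A lack of call therefore does not show that the levels were alike.

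**Figure D3:**
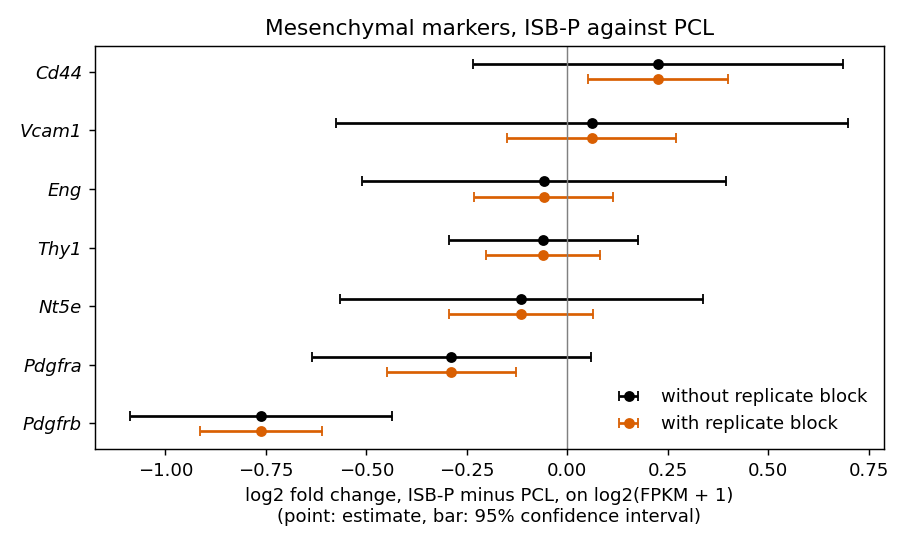
Log2 fold change of ISB-P against PCL on the log2(FPKM + 1) scale for the 7 mesenchymal markers, with the 95% confidence interval as a bar, without (black) and with (orange) the replicate number as a block. The interval of Pdgfrb lies wholly below 0 in both fits, those of Pdgfra and Cd44 do not include 0 in the fit with the block, and the other 4 span 0 in both.

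Same-numbered libraries resembled each other in several markers. Replicate 3 was above replicate 1 in Vcam1 by 1.65-fold on PCL and 1.86-fold on ISB-P, in Nt5e by 1.41-fold and 1.52-fold, and in Cd44 by 1.32-fold and 1.53-fold. For Eng the ratio was 0.702 on PCL and 0.696 on ISB-P, and for Pdgfrb 0.869 and 0.790. The direction was the same on both films for 6 of the 7 markers, all but Thy1. A shared direction was common over all genes tested, and is not particular to these markers. Replicate 3 was above replicate 1 on both films in 51.5% of all genes tested and below it in 37.0%. For Vcam1, Nt5e and Eng these ratios are wider than those between the films within a number. What the replicate numbers stand for is not given in the labels.

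Against TCP, the films were compared by the ratio of values plus 1 FPKM, with no test. TCP lay above all 6 film libraries for 4 of the 7 markers (Thy1, Eng, Vcam1 and Pdgfra), against 25.4% of all genes tested, and inside their range for the other 3. It lay below all 6 for none of the 7, against 29.7%. TCP was 2.10-fold above the PCL mean and 1.99-fold above the ISB-P mean in Vcam1. In Pdgfra it was 1.62-fold and 1.98-fold above them. In Thy1 the ratios were 1.21 and 1.26, and in Eng 1.29 and 1.34. Past a 2-fold difference from PCL there was 1 of the 7 (Vcam1), against 8.6% of all genes tested, and from ISB-P there was 0 of 7, against 13.3%. The count of 0 depends on the offset and the scaling. It was 2 with a pseudocount of 0.1, and 3 with upper quartile scaling, quantile normalization or a common total. The share over all genes is not given here for those settings. Pdgfrb was 1.80-fold higher on TCP than on ISB-P and 1.06-fold higher than on PCL. Over all genes tested the median log2 difference of TCP was -0.07 from PCL and -0.08 from ISB-P. In bulk RNA, fewer cells of a type and less RNA per cell cannot be told apart.

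Of the 3 markers that should be absent, Ptprc, which encodes the leucocyte phosphatase CD45, was the one above 0 in every library. It was measured at 0.481, 0.433 and 0.598 FPKM on PCL, at 0.590, 0.671 and 1.23 on ISB-P, and at 1.48 on TCP. The films overlapped and TCP was the highest library. ISB-P was the higher of each numbered pair, by ratios of 1.23, 1.55 and 2.06, and an exact two-sided permutation test over the libraries gave p = 0.2. In a fit with no filter its adjusted p was 0.529 (limma, 13460 genes). Thy1 exceeded Ptprc 818-fold on TCP, 1659-fold to 2440-fold on PCL and 750-fold to 1657-fold on ISB-P.

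Pecam1 was listed at 0 in 5 libraries, at 0.0280 FPKM in PCL replicate 3 and at 0.0732 on TCP. Cd34 was listed at 0 in all 7 libraries. So were 3609 genes in all, among them Hprt1, a purine salvage enzyme that every cell uses. The surface genes Cd151 and Cd248 were likewise listed at 0 in all 7. A 0 can therefore be a failed estimate in these tables, and the level of Cd34 is given only as listed.

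Other markers of blood and endothelial cells were read from lists. Of 26 leucocyte and macrophage markers, 13 were tested and 0 were called between the films, against 1.72% of all genes tested (limma). At an unadjusted p under 0.05 there was 1, against 12.1%. With the block Cd14 was lower and Lyz2 higher on ISB-P, 2 of 13 against 24.4% of all genes tested (limma). The call of Lyz2 was lost with upper quartile scaling and with a common total. Their summed level was 107 to 155 FPKM on PCL, 108 to 174 on ISB-P and 256 on TCP. Cd48, Lyz2 (a lysozyme of myeloid cells) and Cd14 (a receptor for endotoxin) were the most abundant. Without Cd48, which alone gave 46.7 to 104.7 FPKM, the sum was 60.2 to 72.7 on PCL, 61.3 to 69.9 on ISB-P and 198 on TCP, a split made after the values were seen. TCP lay above all 6 film libraries for 21 of the 26 and for 11 of the 13 tested, against 25.4% of all genes tested, and over the 13 the median ratio to the film mean was 2.23. Cd163, a macrophage scavenger receptor, was listed at 0 throughout. Vcam1, Pdgfra, Thy1, Eng and Ptprc were thus highest in the same library as this list, whose part in those differences was not tested.

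Of 13 lymphocyte markers, 12 were under 1 FPKM in all libraries, 4 of which (Cd3e, Cd3d, Cd79b and Ms4a1) were only listed at 0. All 10 genes of MHC class II were under 1 FPKM in every library, 4 of which (RT1-DMa, RT1-DMb, RT1-DOa and RT1-DOb) were only listed at 0. Among 14 genes of granulocytes, red cells and platelets, 13 stayed under 1 FPKM, with Hbb, Hba1, S100a9 and Prtn3 among the 7 listed at 0. The exception, Pf4, a platelet chemokine, lay at 6.94 to 9.09 FPKM on PCL, 2.81 to 5.93 on ISB-P and 8.15 on TCP, with an adjusted p of 0.300, or 0.0348 with the block (limma), a call lost with quantile normalization. Of 9 haematopoietic progenitor markers, 8 stayed under 1 FPKM, and Gata2, also a factor of other lineages, lay at 2.27 to 2.85 FPKM on PCL and 1.54 to 1.72 on ISB-P (adjusted p 0.166, or 0.0179 with the block, limma). Gata1 was listed at 0.

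Most endothelial markers other than Pecam1 were low too. Of 16, 13 stayed under 1 FPKM in all libraries, Cdh5 (VE-cadherin) reached 0.0711 at most, and Emcn, Cldn5, Robo4 and Sox17 were listed at 0. Egfl7 lay at 12.0 to 15.4 FPKM on PCL, 11.2 to 17.7 on ISB-P and 16.9 on TCP. Flt4, the receptor VEGFR-3 of lymphatic vessels, was measured at 20.2, 17.0 and 16.5 FPKM on PCL, at 10.6, 8.46 and 6.54 on ISB-P, and at 4.93 on TCP. All ISB-P libraries lay below PCL, with a log2 fold change of -1.004 (SE 0.19) and an adjusted p of 0.0573, or 0.000170 with the block (limma). Without ISB-P replicate 1 it was called, at 0.0491 (limma). The summed endothelial list was 30.2 to 36.2 FPKM on PCL, 20.0 to 30.8 on ISB-P and 24.7 on TCP.

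**Figure D4:**
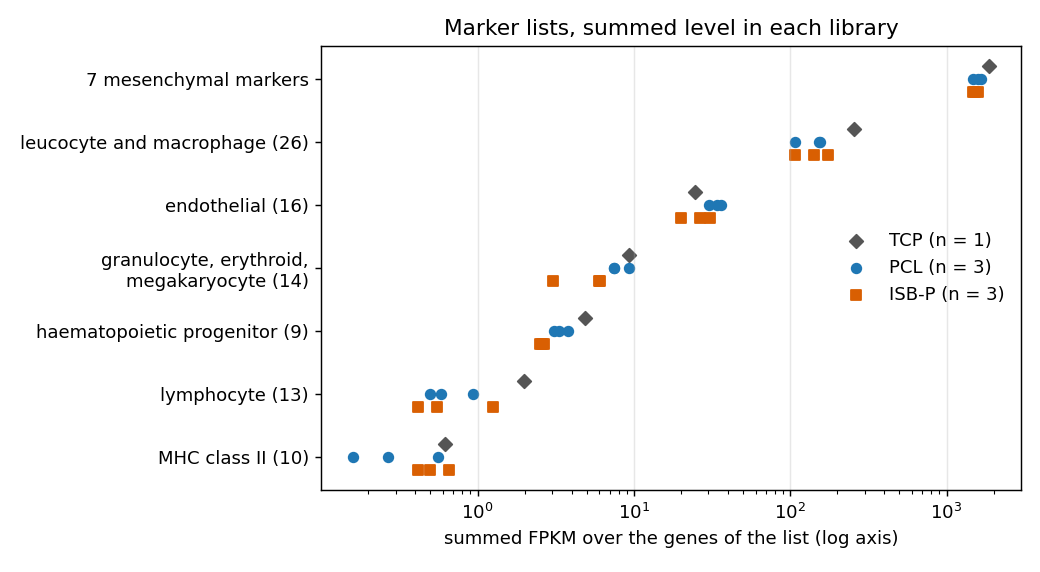
Summed FPKM on a log axis for the 7 mesenchymal markers and for 6 lists of markers of other cells, with the number of genes in each list in parentheses and 1 point per library. The mesenchymal sum lies between 1470 and 1862 in every library, the leucocyte and macrophage sum is highest on TCP at 256, and the lymphocyte and MHC class II sums stay under 2.

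Other surface proteins of stromal cells were abundant. Of 22 such genes 18 were tested and 0 were called, against 1.72% of all genes tested (limma). At an unadjusted p under 0.05 there was 1, against 12.1%. The median log2 fold change was 0.02, beside 0.02 over all genes tested. Cd63 (a tetraspanin of vesicles) lay at 1358 to 1653 FPKM over the films, Cd9 (another tetraspanin) at 584 to 907, and Itgb1 (integrin beta-1) at 455 to 1164, all with overlapping films. With the block 4 of the 18 were called, all lower on ISB-P (limma). Of all genes tested, 24.4% were called in either direction and 11.4% as lower on ISB-P. They were Mcam (CD146, at 12.2 to 13.8 FPKM on PCL and 8.03 to 9.96 on ISB-P), Cspg4 (the pericyte proteoglycan NG2), Cd276 and Anpep. Lepr and Ngfr, which mark stromal cells of native marrow, reached 1.29 and 0.305 FPKM at most.

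Of 19 stromal transcription factors, filaments and niche factors 14 were tested and 0 were called, against 1.72% of all genes tested (limma). At an unadjusted p under 0.05 there were 2, against 12.1%. S100a4, Vim and Lgals1 led this list, each at 3675 FPKM or more in every library. With the block, Snai2, Ebf1, Runx2 and Kitlg were higher and Prrx1 and Twist2 lower on ISB-P (limma), 6 of 14 against 24.4% of all genes tested. Runx2 was lost under each of the 3 other scalings with the block, where Twist1 was called lower. Snai2, a repressor of epithelial genes, had the smallest adjusted p of the list without the block. It was measured at 10.8, 12.7 and 10.5 FPKM on PCL, at 17.7, 22.5 and 22.1 on ISB-P, and at 43.3 on TCP, with no overlap of the films (log2 fold change 0.82, SE 0.15, adjusted p 0.0510, or 0.000440 with the block, limma).

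Mural cells share Pdgfrb with MSCs. Of 11 mural and smooth muscle markers 9 were tested, and Myocd, a coactivator of smooth muscle genes, was the 1 called, higher on ISB-P (limma, adjusted p under 0.05, against 1.1% of all genes tested). Myocd was measured at 1.91, 1.79 and 1.63 FPKM on PCL, at 2.99, 3.27 and 3.28 on ISB-P, and at 0.692 on TCP. Its log2 fold change was 0.59 (SE 0.10) with an adjusted p of 0.0450 (limma), and the call was lost in each of the 6 fits that left out 1 film library, under upper quartile scaling and under a common total. Tagln, Acta2 and Cnn1, proteins of the contractile apparatus, were the most abundant and overlapped between the films, at 2043 to 2439, 582 to 699.9 and 69.6 to 75.8 FPKM. With the block Des, Smtn, Abcc9 and Notch3 were lower on ISB-P and Myocd higher, 5 of 9 against 24.4% of all genes tested (limma). The call of Abcc9 was lost with quantile normalization. Kcnj8 and Rgs5 were not tested, and Rgs5 was above 0 in 1 library.

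The partners of the other markers were read the same way. Each of these lists also holds its own marker (Eng, Nt5e, Cd44 and Vcam1, or Thy1), which is counted here again. Of 18 TGF-beta receptors, ligands and mediators around Eng, 16 were tested and 0 were called, against 1.72% of all genes tested (limma). At an unadjusted p under 0.05 there were 5, against 12.1% of all genes tested. With the block 6 were called, against 24.4%: Tgfb2, Bmp2, Smad1 and Smad3 higher and Tgfbr3 and Acvrl1 lower on ISB-P (limma). Smad3 was lost under each of the 3 other scalings, and Smad1 under a common total. Acvrl1, the type I receptor ALK1 with which Eng acts, was measured at 16.7, 14.5 and 12.8 FPKM on PCL, at 11.4, 9.12 and 7.85 on ISB-P, and at 21.5 on TCP (log2 fold change -0.59, adjusted p 0.194, or 0.00135 with the block, limma). Tgfbr3, betaglycan, a related co-receptor, lay at 5.27 to 5.89 FPKM on PCL and 3.26 to 3.54 on ISB-P (log2 fold change -0.56, adjusted p 0.0620, or 0.00291 with the block, limma). The films did not overlap for either gene, while those of Eng itself did. Over the list, 6 of the 16 tested did not overlap, against 17.7% of all genes tested in either direction. Among genes called higher, the log2 fold change over the 4 block fits was 0.58 to 0.70 for Tgfb2 and 0.30 to 0.45 for Bmp2.

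Around Nt5e, 7 of 11 purine enzymes, transporters and adenosine receptors were tested and 0 were called, against 1.72% of all genes tested (limma). At an unadjusted p under 0.05 there were 0, against 12.1%. With the block 0 were called on the deposited scale (limma), but Slc29a1, a nucleoside transporter, was called lower on ISB-P in the other 3 block fits, with adjusted p from 0.0204 to 0.0404 (limma). Adora2b, the adenosine receptor with the highest level, lay at 7.65 to 12.0 FPKM on PCL, 9.35 to 12.2 on ISB-P and 13.02 on TCP. Around Cd44 and Vcam1, 10 of 14 genes were tested. Of the 10, 0 were called or had an unadjusted p under 0.05, against 1.72% and 12.1% of all genes tested (limma). With the block 3 of the 10 were called, against 24.4% of all genes tested (limma). Of these, Has2 (a hyaluronan synthase) and Ezr (ezrin, which links Cd44 to actin) were higher and Spp1 (osteopontin, a ligand of Cd44) lower on ISB-P. The call of Has2 was lost with quantile normalization and with a common total. Has2 was measured at 66.6, 107.0 and 136.4 FPKM on PCL, at 84.8, 116.9 and 217.7 on ISB-P, and at 52.5 on TCP, with overlapping films. Itga4, the integrin chain that binds Vcam1, stayed under 1.2 FPKM in every library. Of 8 genes around Thy1, 7 were tested. Of the 7, 0 were called or had an unadjusted p under 0.05, against 1.72% and 12.1% of all genes tested (limma). With the block 1 of the 7 was called, against 24.4% of all genes tested in either direction and 11.4% as lower (limma). It was Itgb3, an integrin chain that binds Thy1, which was lower on ISB-P. It lay at 56.1 to 60.9 FPKM on PCL and 46.1 to 53.4 on ISB-P.

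Vcam1 is a known target of NF-kappaB, as are others of a list of 9 genes, all of them tested. None was called between the films, against 1.72% of all genes tested (limma, adjusted p under 0.05). At an unadjusted p under 0.05 there were 3, against 12.1% of all genes tested. With the block Nfkbie, Irf1 and Cx3cl1 were lower on ISB-P, 3 of 9 (limma). Of all genes tested, 24.4% were called in either direction and 11.4% as lower. Irf1 was measured at 24.2, 22.6 and 24.4 FPKM on PCL, at 15.2, 15.0 and 15.6 on ISB-P, and at 20.3 on TCP. Its adjusted p was 0.0579 (limma), and 0.0407 with scaling to a common total, where it was called. TCP was above all film libraries for 6 of the 9, against 25.4% of all genes tested, among them Vcam1 and Icam1 at 33.1 against 15.5 to 19.6 FPKM, and below all for Ccl2 at 575 against 936 to 1587. Over all lists together, without the 10 identity markers and the housekeeping genes, 108 genes were tested. Of the 108, 1 was called, against 1.72% of all genes tested (limma). With the block 36 were called, which is 33.3% against 24.4% of all genes tested (limma). Of these 36, 24 were lower and 12 higher on ISB-P, and 29 were called in all 4 block fits. With the block and a common total the split was 35 lower and 7 higher.

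The genes whose pattern over the 7 libraries was most like each marker were found by Pearson correlation of log2(FPKM + 1) among 9149 genes that varied. These correlations are descriptions over 7 libraries that share culture and replicate number, among many candidates. For Thy1, Eng, Vcam1 and Pdgfra, TCP lay above all film libraries, so that 1 library can carry much of r. Values of r without TCP are not given here. Pdgfrb was closest to Fhod1 (r = 0.9985), a formin, and to Dlk2 (r = 0.9957). Dlk2 lay at 6.90 to 10.4 FPKM on PCL, 1.59 to 3.34 on ISB-P and 11.004 on TCP. Vcam1 was closest to Prkd1 (r = 0.9946) and to Mmp13 (r = 0.9907), a collagenase at 30.3 FPKM on TCP and 8.38 to 19.6 on the films. Pdgfra was closest to Oasl2 (r = 0.9930) and Parp14 (r = 0.9912), which are known as interferon-induced genes. Parp14 lay at 12.3 to 15.2 FPKM on PCL, 9.37 to 13.2 on ISB-P and 24.3 on TCP. Cd44 was closest to Dclk1 (r = 0.9953) and Heca (r = 0.9942), Nt5e to Map4k3 (r = 0.9975) and Nadk2 (r = 0.9920), Eng to Zfp319 (r = 0.9864) and Porcn (r = 0.9853), and Thy1 to Pigv (r = 0.9917) and Atp6v0e2 (r = 0.9907).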

How the data were processed

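The authors prepared poly(A)-selected, strand-specific libraries (TruSeq stranded mRNA) and sequenced them as paired ends. Per the submitters' processing notes, bcl2fastq 2.20.0.422, cutadapt 1.18, TopHat2 2.0.13 and Cuffdiff 2.2.1 were used with build rn5. Each library has its own table of 1 value per gene symbol, as deposited, read here as FPKM because the notes name Cuffdiff and the values are not whole. The unit itself is not stated, annotation is not given in the sources used here, and depth is unknown, so no counting interval or floor is given. Summed FPKM was 542921 to 597954 on PCL, 590628 to 660124 on ISB-P and 539393 on TCP.

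Groups and replicate numbers came from the sample titles. The deposited tables number the libraries differently, with no number, 1 and 2 on PCL and no number, 2 and 3 on ISB-P, so the blocked values rest on the titles. limma 3.58.1 in R 4.3.3 (lmFit, eBayes with a mean-variance trend) was run two-sided on log2(FPKM + 1) for the 6 film libraries, on genes that reached 1 FPKM in 3 or more of them, with Benjamini-Hochberg adjustment and a threshold of 0.05. Fold changes on this scale understate those of low genes. Figures were drawn with matplotlib 3.10.9.

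Replicate numbers were checked as a pairing by correlating the deviations from each film's mean. Same-numbered PCL and ISB-P libraries correlated at 0.431 to 0.887, and different numbers at -0.836 to 0.177, or -0.356 on average. Deviations from a mean of 3 libraries sum to 0, which ties the average of different numbers to that of the same numbers. The negative average is thus no separate evidence of pairing. Values with the number as a block are given where they change a call. The pairing comes from the data and the title numbers, not from a stated batch. The other alternatives changed the scaling, the pseudocount, the filter, the variance trend or the libraries in the fit.

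The identity markers and all lists were chosen with earlier results of these data known. Named by rule were the 10 markers, and from each list the genes called, the 3 most abundant and those listed at 0. For likeness, the rule took the 2 most correlated genes whose SD over the libraries was at least 0.1. Other genes were named after their values were seen. List symbols not found in the tables, Adgre1 among them (its older symbol Emr1 was used), were not analysed here.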

Additional observations from a re-analysis of the deposited data

How the results depend on the processing

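No marker was called in the fit without a block under any scaling, pseudocount, filter or variance model, with TCP in the fit, or without any 1 library, and 2 of the 7 (Pdgfra and Pdgfrb) were called in each of 4 fits with the replicate block. Pdgfrb and Pdgfra stayed below 0 in all 19 settings, at -0.89 to -0.68 and -0.40 to -0.21. Vcam1 turned to -0.014 with upper quartile scaling and -0.048 with a common total, both with and without the block, and lay between -0.19 (without ISB-P replicate 3) and 0.24 without 1 library. Eng lay between -0.19 and 0.089 without 1 library, with 0.044 without PCL replicate 1, and Nt5e between -0.25 and 0.028. The cause was not tested. Scaling to a common total moved the median log2 fold change of all genes from 0.02 to -0.09, and upper quartile scaling to -0.06.

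Over all genes tested, 104 were called higher and 59 lower on ISB-P. Upper quartile scaling gave 69 and 39. A filter of at least 1 FPKM in all 6 film libraries gave 35 lower, and no variance trend 38 lower. The replicate block gave 1228 and 1079, with upper quartile scaling 822 and 1558, with quantile normalization 1082 and 1207, and with a common total 714 and 2113. Leaving out 1 library gave 14 to 82 higher and 6 to 31 lower, past 1.5 times in every case but that of higher genes without ISB-P replicate 3. Over the marker lists, 1 gene (Myocd) was called, 1 with a common total (Irf1 in its place), 0 with upper quartile scaling or no variance trend, 0 to 1 without 1 library (Flt4 without ISB-P replicate 1), 36 with the block, and 36, 37 and 42 with the block and upper quartile scaling, quantile normalization or a common total. Past 2-fold from the ISB-P mean, TCP had 0 of 7 markers, but 2 with a pseudocount of 0.1, 3 with upper quartile scaling, quantile normalization or a common total, and 0 to 2 without 1 ISB-P library. Past 2-fold from the PCL mean it had 1, and 0 to 1 without 1 PCL library. The block changed no other call of a marker. Unknown depth limits the values of Ptprc, Pecam1 and Cd34.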

Other observations

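Lineage genes of bone, fat and cartilage were read from a list of 15. Of these, 8 were tested between the films. Of the 8, 0 were called or had an unadjusted p under 0.05, against 1.72% and 12.1% of all genes tested (limma). With the replicate block Sp7 and Acan were lower on ISB-P, 2 of 8 (limma). Of all genes tested, 24.4% were called in either direction and 11.4% as lower. TCP lay above all 6 film libraries for 11 of the 15 and for 7 of the 8 tested, against 25.4% of all genes tested. The median ratio to the film mean was 1.59 over the 8 tested, beside 0.947 over all genes tested. There was 1 TCP library, and this difference was not tested. Fabp4, a fatty acid carrier of fat cells, was at 71.1 FPKM on TCP and 19.0 to 40.6 on the films, and Lpl, a lipase, at 35.5 and 9.18 to 16.8. Plin1, which coats lipid droplets, was at 3.21 and 0.298 to 0.777, and Adipoq, an adipocyte hormone, at 1.58 and 0.0469 to 0.332. Sp7, a transcription factor of bone-forming cells, was at 15.6 on TCP, 5.32 to 7.94 on PCL and 3.29 to 7.16 on ISB-P. The late bone genes Ibsp and Dmp1 stayed under 1 FPKM in all libraries. Macrophages also express Lpl and Fabp4, and the part of the leucocyte list, which was highest on TCP too, was not tested.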
